A study of Mus musculus with 45 samples.

Results

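The addition of Fgf2 and Activin A to serum-free N2B27 medium was examined at days 1, 1.5 and 2 of differentiation of male mouse embryonic stem cells (ESCs), with 12 of the 45 RNA-seq libraries of the series. The 6 libraries labelled EpiSC, in which N2B27 was supplemented with Fgf2 and Activin A (hereafter FA), were compared with the 6 libraries labelled Neural, in which N2B27 was given alone. All 12 were chosen by their labels, and each FA library was paired with the N2B27 library of the same starting medium and day, which gave 6 pairs. Every library came from wild-type E14tg2a cells of the 129/Ola background, a single male ESC line. The cells had been maintained in 2iL (N2B27 with LIF and inhibitors of MEK and of GSK3) or in SL (serum with LIF), and differentiated as an adherent culture on gelatin. The rest of the series comprised undifferentiated cells, later days and embryoid bodies. Each starting medium, condition and day had 1 library, so the 3 days of a time course may share a culture, and p-values measure only the spread between these pairs. Fgf2 and Activin A were always given together, so the effect of one cannot be told apart from that of the other.

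As background, Activin A binds the receptors that Nodal uses. The receptors phosphorylate Smad2 and Smad3, which enter the nucleus with Smad4 and act with partners such as Foxh1. Among the targets are the ligand gene Nodal itself and the secreted inhibitors Lefty1 and Lefty2, so that the pathway both feeds itself and restrains itself. Fgf2 binds Fgf receptors and activates the MEK and ERK kinases, whose targets include feedback inhibitors of the Dusp, Spry and Spred families. Together the 2 factors sustain cells that resemble the postimplantation epiblast, whereas N2B27 alone permits neural differentiation.

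The 12 libraries held 15101710 to 22151679 counts on 35372 genes. Levels are given in CPM, which are counts scaled to the library total after TMM, a correction for differences in library composition. At the median depth, 3 counts correspond to 0.178 CPM, and this floor covers counting error only. The 7 libraries of the FA time course from 2iL stood apart from the other 38 of the series at every day, day 0 included, when no FA had been given. In them Hist1h2ba, a histone gene, was at 24 to 44 CPM against 87.3 to 217 CPM, Rn7s6, a 7SL RNA gene, at 267 to 834 against 973 to 5760 CPM, and Gm10036 at 0.582 to 1.53 against 9.47 to 24.4 CPM. What sets this time course apart cannot be told apart from FA in the 2iL pairs alone. Values from the 3 SL pairs alone are therefore given beside the larger results and wherever a named call was lost in them, as are values from a fit with the day 0 libraries of both 2iL time courses and a term for the 2iL FA time course (hereafter the day 0 baseline). The baseline has 1 day 0 library for each 2iL time course. Its estimates rest largely on the SL pairs, so the 2 sets of values are not independent checks. Levels over days within a condition come from single libraries and are described without a test.

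With FA, the extracellular and intracellular inhibitors of Nodal signalling and several Fgf ligand genes were among the strongest rises. Of 10 neural genes tested 7 fell, against 8.14% of all genes. The neural fall was weaker without the 2iL pairs, with 4 of the 10 lower in the SL pairs alone and 2 with the day 0 baseline. Of 13902 genes tested with edgeR's quasi-likelihood test, 2516 (18.1%) passed an adjusted p of 0.05, and 1385 of these were higher (9.96%) and 1131 lower (8.14%) with FA. Most differences were small, since 123 genes (0.885%) passed and differed by over 1 on the log2 scale, 56 of them higher (0.403%) and 67 lower (0.482%). In 3144 genes (22.6%) all 6 pairs had the same sign, and in 233 (1.68%) the CPM of the FA and N2B27 libraries did not overlap. The median log2 difference of all genes tested was -0.00295. With library totals in place of TMM it was 0.123, and 88.8% of the calls were then higher with FA, compared with 55.0%. With the SL pairs alone 1831 of 14184 genes passed (12.9%), and with the day 0 baseline 874 of 13902 passed (6.29%). Of the 2516 genes, 2504 of the 2506 tested in the SL pairs had the same direction there and 1229 passed. The SL pairs are among the 6 pairs that gave the 2516 calls, so the shared direction was largely fixed in advance. It is no independent check.

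**Figure D1:**
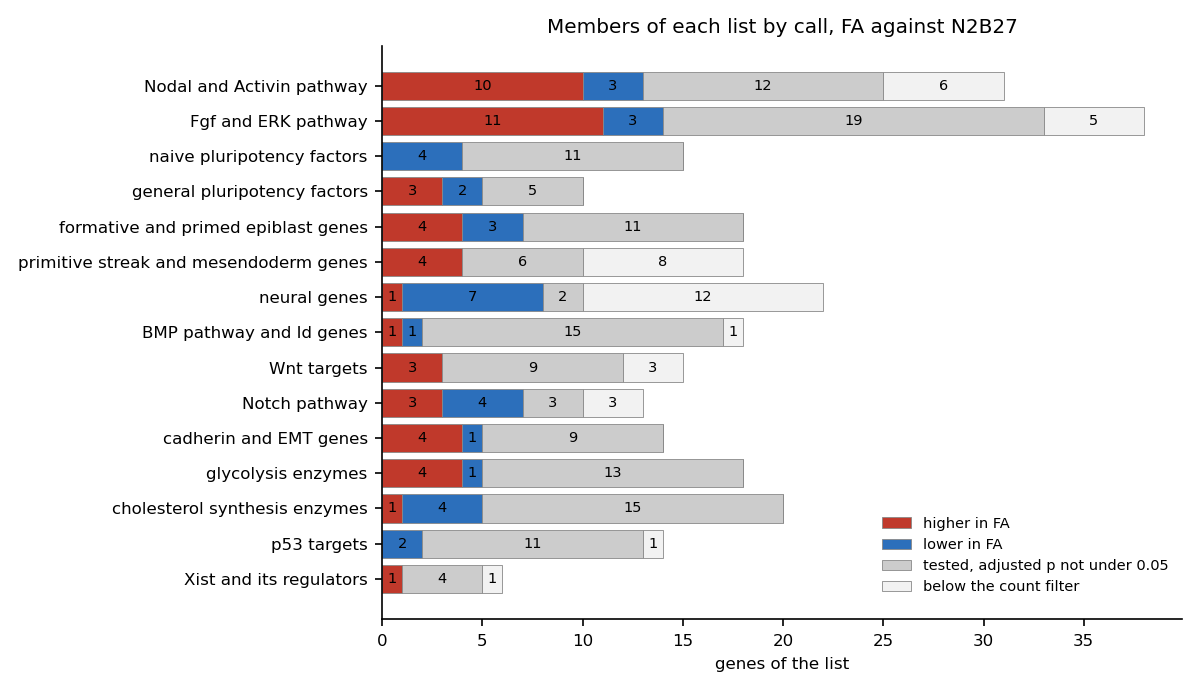
Stacked bars show, for each gene list (vertical axis), the number of members (horizontal axis) that were higher with FA, lower with FA, not past an adjusted p of 0.05, or removed by the filter on low counts. The Nodal and Activin list had 10 members higher and 3 lower, and the neural list 1 higher and 7 lower. Over all genes tested, 18.1% passed.

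Of 31 genes listed for the Nodal and Activin pathway, 25 passed the filter on low counts, and 10 of these were higher and 3 lower with FA, against the background of 18.1% of all genes. The median log2 difference of the 25 was -0.01, so the rise was carried by some of the members, mainly targets and feedback inhibitors. The 12 members that did not pass lay between -0.45 and 0.19 on the log2 scale. They included the transducer Smad2, at 73.6 to 91.7 CPM with FA and 75.3 to 91.9 CPM in N2B27, and the type I receptor Tgfbr1, at 49.7 to 62.8 and 49.5 to 67.4 CPM. Inhba, which encodes the subunit of Activin A, reached at most 0.0571 CPM in any of the 12 libraries, which is under the floor.

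Lefty1 and Lefty2 encode secreted inhibitors of Nodal and lie beside each other on chromosome 1 of GRCm38, at 180935022 to 180938400 and 180893108 to 180899103 on the positive strand. Lefty2 from 2iL was at 34.4, 92.0 and 223 CPM with FA on days 1, 1.5 and 2, compared with 1.9, 6.35 and 27.4 CPM in N2B27. From SL it was at 31.5, 86.5 and 132 CPM with FA, compared with 3.63, 13.4 and 22.8 CPM. Every FA library was above every N2B27 library, and the level was higher on later days under both conditions. The log2 difference was 3.08 ± 0.16 (SE, 6 pairs), an 8.43-fold higher level with FA (edgeR, adjusted p = 3.81e-06), and it was 2.69 with the SL pairs alone and 2.91 with the day 0 baseline.

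Lefty1 followed the same order. From 2iL it was at 36.6, 109 and 276 CPM with FA against 3.29, 13.1 and 61.3 CPM, and from SL at 74.0, 186 and 367 CPM against 11.2, 35.8 and 65.5 CPM. The FA library was above its N2B27 partner in 6 of 6 pairs, although the earliest FA libraries overlapped with the latest N2B27 libraries. The log2 difference was 2.60 ± 0.13 (SE, 6 pairs, edgeR, adjusted p = 1.95e-06). Among stretches of 50 bases, 281 occur in the coding transcripts of both genes, which is 17.9% of those of Lefty1 and 11.6% of those of Lefty2, so the counting could exchange or lose some reads between them.

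The intracellular inhibitors showed another time course. Smad7, which blocks the activated receptor, was at 38.0, 14.6 and 11 CPM over days 1, 1.5 and 2 in N2B27 from 2iL, and at 81.0, 56.1 and 55.9 CPM with FA. From SL it was at 30.5, 24.4 and 16.5 CPM in N2B27 and 76.6, 69.5 and 68.0 CPM with FA. All FA libraries were above all N2B27 libraries, and the log2 difference was 1.66 ± 0.13 (SE, 6 pairs, edgeR, adjusted p = 0.000112). Pmepa1, a membrane protein that sequesters Smads, was at 12.0 CPM on day 1 and 5.85 CPM on day 2 with FA from 2iL, compared with 7.74 and 1.43 CPM in N2B27. It differed by 1.06 ± 0.15 on the log2 scale (SE, 6 pairs, adjusted p = 0.00195). The nuclear repressors of Smad activity changed less. Skil was 1.44-fold higher with FA (adjusted p = 0.000296), Ski 1.201-fold (adjusted p = 0.00786) and Tgif1 1.13-fold (adjusted p = 0.0146), each in 6 of 6 pairs.

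**Figure D2:**
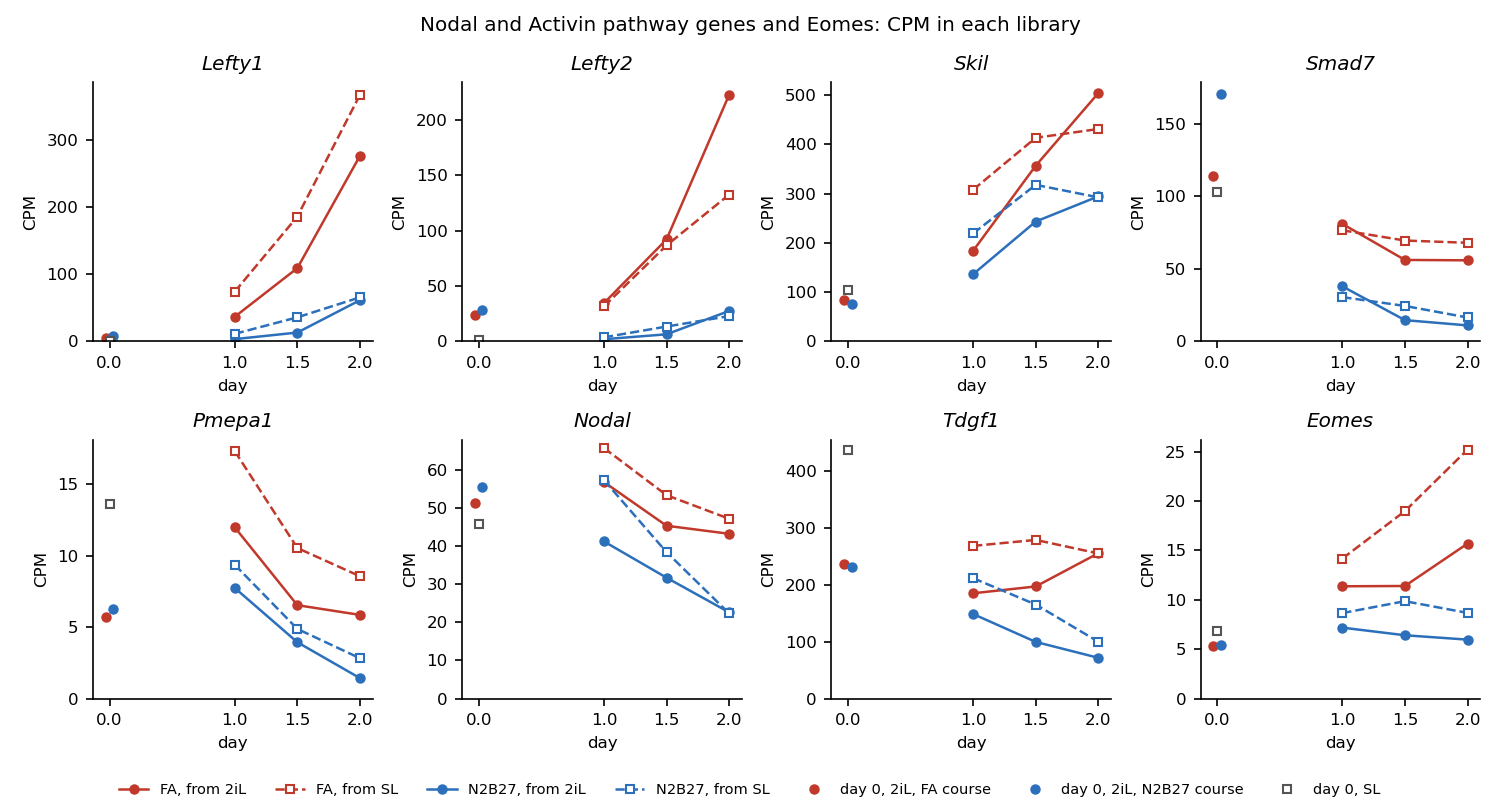
Levels in CPM (vertical axes, each with its own scale) are plotted against day (horizontal axes) for Lefty1, Lefty2, Skil, Smad7, Pmepa1, Nodal, Tdgf1 and Eomes, with FA in red, N2B27 in blue, 2iL as filled circles with solid lines and SL as open squares with dashed lines, 1 library per point. Lefty1 and Lefty2 were higher on later days under both conditions and higher with FA in 6 of 6 pairs, whereas Smad7 was at its lowest, 11 CPM, in N2B27 on day 2 from 2iL.

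The ligand and its co-receptor also rose. Nodal was at 56.8, 45.4 and 43.3 CPM with FA from 2iL, and at 41.3, 31.7 and 22.6 CPM in N2B27. From SL it was at 65.8, 53.4 and 47.2 CPM with FA and 57.4, 38.4 and 22.4 CPM in N2B27. The level was lower on later days under both conditions, and the log2 difference was 0.58 ± 0.10 (SE, 6 pairs, edgeR, adjusted p = 0.00323).

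Tdgf1 encodes Cripto, the membrane protein that Nodal requires for signalling through its receptors. It was at 185, 197 and 256 CPM with FA from 2iL, and at 149, 99.7 and 71.7 CPM in N2B27. From SL it was at 269, 279 and 255 CPM with FA, and at 212, 165.5 and 100.0 CPM in N2B27. The groups overlapped because the day 1 libraries in N2B27 were still high, and the log2 difference was 0.91 ± 0.17 (SE, 6 pairs, edgeR, adjusted p = 0.00528). It is also a gene whose difference changed with time, as described further on.

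The promoter windows of these 2 genes, from 250 bases before to 50 bases after the annotated start, are shown because Nodal and Tdgf1 are the ligand and co-receptor whose transcripts both responded to FA. They come from RefSeq on GRCm38.p6, at chr10:61417722-61418021 on the positive strand for Nodal and chr9:110946109-110946408 on the negative strand for Tdgf1. Both strands were searched for CAGAC, a Smad-binding motif, and for AATNNACA, a form of the Foxh1-binding motif, and the matches are in capitals.
Nodal: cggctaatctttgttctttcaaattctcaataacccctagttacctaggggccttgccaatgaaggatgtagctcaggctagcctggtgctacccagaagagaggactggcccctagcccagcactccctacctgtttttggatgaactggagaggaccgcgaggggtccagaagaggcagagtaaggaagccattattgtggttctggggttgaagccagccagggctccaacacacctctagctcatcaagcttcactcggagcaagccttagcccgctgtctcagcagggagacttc
Tdgf1: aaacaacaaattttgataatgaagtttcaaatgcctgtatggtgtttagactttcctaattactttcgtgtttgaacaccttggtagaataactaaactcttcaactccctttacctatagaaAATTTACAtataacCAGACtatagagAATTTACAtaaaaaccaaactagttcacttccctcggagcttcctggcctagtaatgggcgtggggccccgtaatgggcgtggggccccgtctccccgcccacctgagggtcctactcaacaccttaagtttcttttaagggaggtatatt
In the Tdgf1 window AATNNACA occurred at 127 and 101 bases before the start, with CAGAC between them at 113 bases, and the motifs did not overlap. Neither was found in the Nodal window. CAGAC was found in 49.6% and AATNNACA in 12.2% of 32851 promoter windows of this length, and a match is not in itself a binding site.

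The 3 members of the pathway that fell were receptors and a transducer, and their differences were small. Acvr2b, an Activin type II receptor, was at 8.85 to 15.6 CPM with FA and 11.7 to 18.6 CPM in N2B27, a log2 difference of -0.36 ± 0.08 (SE, 6 pairs, edgeR, adjusted p = 0.0126). Acvr1b, the type I receptor, differed by -0.23 (adjusted p = 0.0399) and Foxh1 by -0.22 (adjusted p = 0.0357) on the log2 scale. Acvr1b did not pass without any one pair other than that of day 2 from 2iL (adjusted p up to 0.103), nor Foxh1 without any one pair from 2iL or that of day 1.5 from SL (up to 0.0785) or with the SL pairs alone (0.281). With the day 0 baseline none of the 3 receptors and transducers passed (adjusted p = 0.120 for Acvr2b, 0.190 for Acvr1b and 0.426 for Foxh1), while the other 10 did.

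Of 38 genes listed for the Fgf and ERK pathway, 33 passed the filter, and 11 were higher and 3 lower with FA. This was 42.4% of those tested, against 18.1% of all genes, and the median log2 difference was 0.17. The 19 that did not pass lay between -0.59 and 0.82 on the log2 scale. Fgf2, the gene of the added protein, reached at most 0.162 CPM in any of the 12 libraries, which is under the floor. The larger differences were those of the Fgf ligand genes Fgf8, Fgf5, Fgf15 and Fgf10. The ligand genes Fgf3, Fgf4, Fgf17 and Fgf18 of the same list did not pass.

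Fgf5, a marker of the postimplantation epiblast, was at 2.27, 7.52 and 22.1 CPM with FA from 2iL on days 1, 1.5 and 2, and at 2.32, 3.41 and 4.79 CPM in N2B27. From SL it was at 7.71, 14.9 and 23.7 CPM with FA compared with 1.95, 4.75 and 4.58 CPM. The pair of day 1 from 2iL differed by -0.03 on the log2 scale, and the other 5 pairs were higher with FA. The log2 difference was 1.69 ± 0.23 (SE, 6 pairs, edgeR, adjusted p = 0.00156).

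Fgf8, which is expressed in the primitive streak, was close to the floor on day 1 and at 2.05 CPM from 2iL and 4.73 CPM from SL on day 2 with FA, compared with 0.870 and 0.798 CPM in N2B27. Its log2 difference of 2.10 ± 0.28 (SE, 6 pairs, adjusted p = 0.00154) rests on these low counts. Fgf15 was at 5.59, 8.07 and 14.22 CPM with FA from 2iL and 1.53, 2.07 and 4.41 CPM in N2B27, and from SL at 12.0, 17.0 and 20.6 CPM compared with 4.71, 7.04 and 9.95 CPM. It was higher in 6 of 6 pairs, with a log2 difference of 1.44 ± 0.12 (SE, adjusted p = 0.000112). Fgf10 depended on the starting medium in level, at 4.86 to 8.43 CPM with FA from SL and at most 1.93 CPM from 2iL, and differed by 1.14 ± 0.25 on the log2 scale (SE, 6 pairs, adjusted p = 0.0125). With the 2iL pairs alone the difference of Fgf10 was 0.15 and did not pass (adjusted p = 0.805).

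Among the targets of ERK signalling on the list that passed, Myc was at 25.8, 41.2 and 39.9 CPM with FA from 2iL and 22.5, 21.6 and 23.5 CPM in N2B27. From SL it was at 37.4, 52.1 and 57.8 CPM compared with 22.2, 34.5 and 21.7 CPM. The log2 difference of this growth-promoting factor was 0.77 ± 0.12 (SE, 6 pairs, edgeR, adjusted p = 0.00239). Junb, a subunit of AP-1, was lower in level, at 1.35 to 6.03 CPM with FA and 1.47 to 2.82 CPM in N2B27 (log2 difference 0.64, adjusted p = 0.0309). The call of Junb was lost without any one pair other than that of day 1 from 2iL (adjusted p up to 0.0964). Ccnd1, a cyclin of the G1 phase, was 1.16-fold higher (adjusted p = 0.0279), which was lost without any one pair other than that of day 1 from SL (up to 0.0819), with the SL pairs alone (0.191) and with the day 0 baseline (adjusted p = 0.811). Egr1, Ier2 and Phlda1 of the same list did not pass. Their raw counts, not adjusted for depth, summed to 689, 2868 and 252 with FA and to 390, 2701 and 277 in N2B27. The higher sum of Egr1 with FA came from 2iL. Its raw counts on days 1, 1.5 and 2 were 146, 99 and 217 with FA from 2iL and 15, 59 and 57 in N2B27. From SL they were 46, 77 and 104 with FA and 67, 80 and 112 in N2B27.

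The feedback inhibitors of ERK signalling moved in both directions. Dusp6, a phosphatase of ERK, was at 105 to 245 CPM with FA and 90.5 to 131 CPM in N2B27, higher in 6 of 6 pairs by 0.49 ± 0.08 on the log2 scale (SE, adjusted p = 0.00259). Il17rd, an inhibitor at the membrane also known as Sef, was 1.198-fold higher (adjusted p = 0.00324), and so were the inhibitor Spry2 by 1.18-fold (adjusted p = 0.0241) and the Ets factor Etv1 by 1.18-fold (adjusted p = 0.00554). Spred3, another inhibitor of the pathway, was 1.24-fold lower (adjusted p = 0.0198). Dusp4, Spry4, Etv4 and Etv5 did not pass, with log2 differences of 0.06, 0.18, 0.17 and 0.07. Spry2 did not pass without the pair of day 1 or day 2 from SL or day 1.5 from 2iL (up to 0.0671), nor Spred3 without that of day 1.5 or day 2 from 2iL or day 2 from SL (up to 0.0832), with the SL pairs alone (0.173) or with the day 0 baseline (0.165).

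Of the receptors, Fgfr2 fell. It was at 28.5, 47.2 and 49.2 CPM with FA from 2iL compared with 38.0, 58.8 and 79.6 CPM, and from SL at 53.1, 51.1 and 56.3 CPM compared with 65.6, 81.9 and 78.6 CPM. It was lower in 6 of 6 pairs by 0.49 ± 0.06 on the log2 scale (SE, edgeR, adjusted p = 0.000936). Fgfr1, another receptor of the family, did not pass, at 72.6 to 95.4 CPM with FA and 71.5 to 122 CPM in N2B27. The ligand gene Fgf1 was 1.26-fold lower (adjusted p = 0.0432), which was lost without any one pair other than that of day 1 from SL (up to 0.110), with the SL pairs alone (0.290) and with the day 0 baseline (0.415).

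Over both pathways 27 members passed. Of these, 23 passed with the SL pairs alone, 22 with the 2iL pairs alone and 21 with the day 0 baseline. For all genes that passed, it was 1229 of 2506 tested, 1682 of 2478 and 710 of 2516, in that order. None of the 27 changed direction. Each of these fits reuses pairs that gave the 27 calls, so the kept direction was largely fixed in advance. Leaving out 1 pair at a time kept 20 to 24 of the 27. With no block for medium and day, 0 of the 27 passed, and 0 of all genes.

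**Figure D3:**
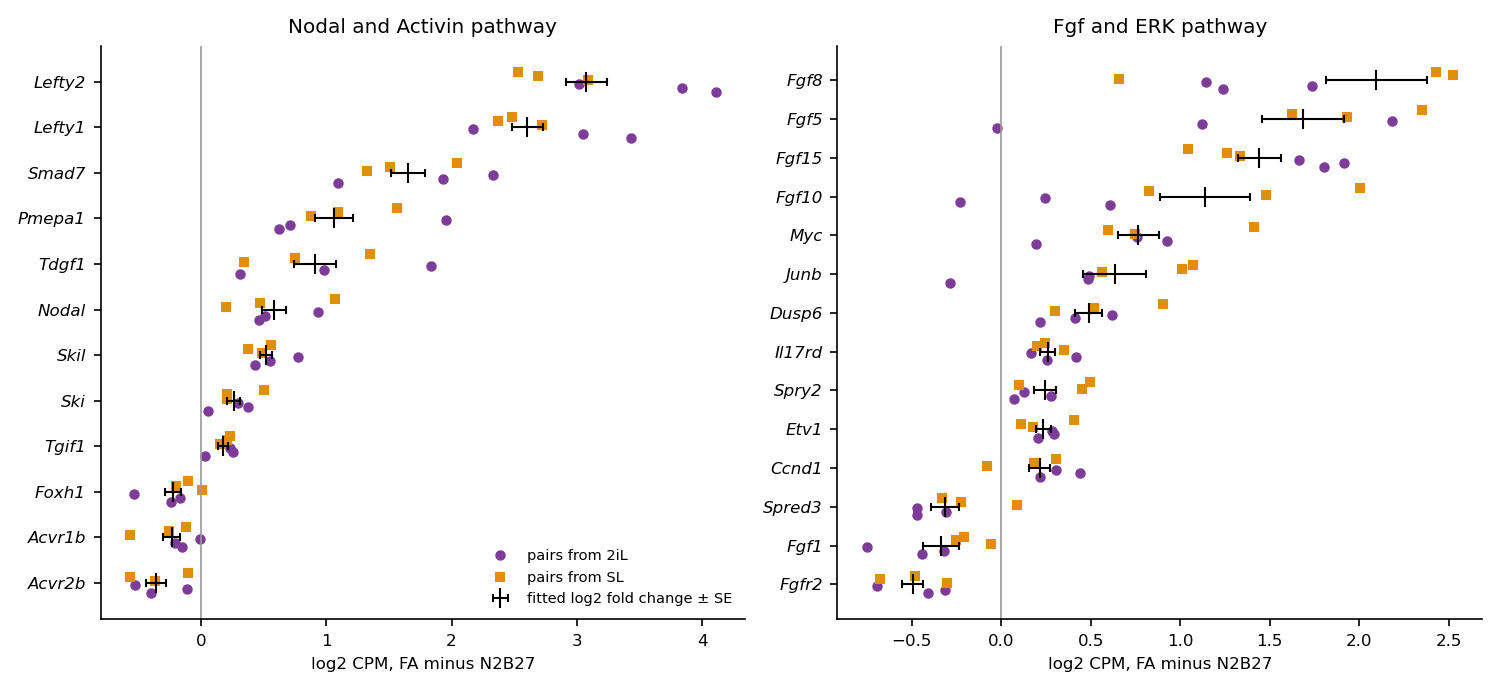
For the members of the Nodal and Activin and of the Fgf and ERK lists that passed an adjusted p of 0.05 and are reported here (vertical axis), the log2 differences in CPM, FA minus N2B27 (horizontal axis), of the 6 pairs are shown as purple circles for 2iL and orange squares for SL, with the fitted log2 difference and its SE in black. The fitted differences of Lefty2 (3.08) and Lefty1 (2.60) are the largest of those plotted, with pairs between 2.17 and 4.11, while those of the receptors are below 0.

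**Figure D4:**
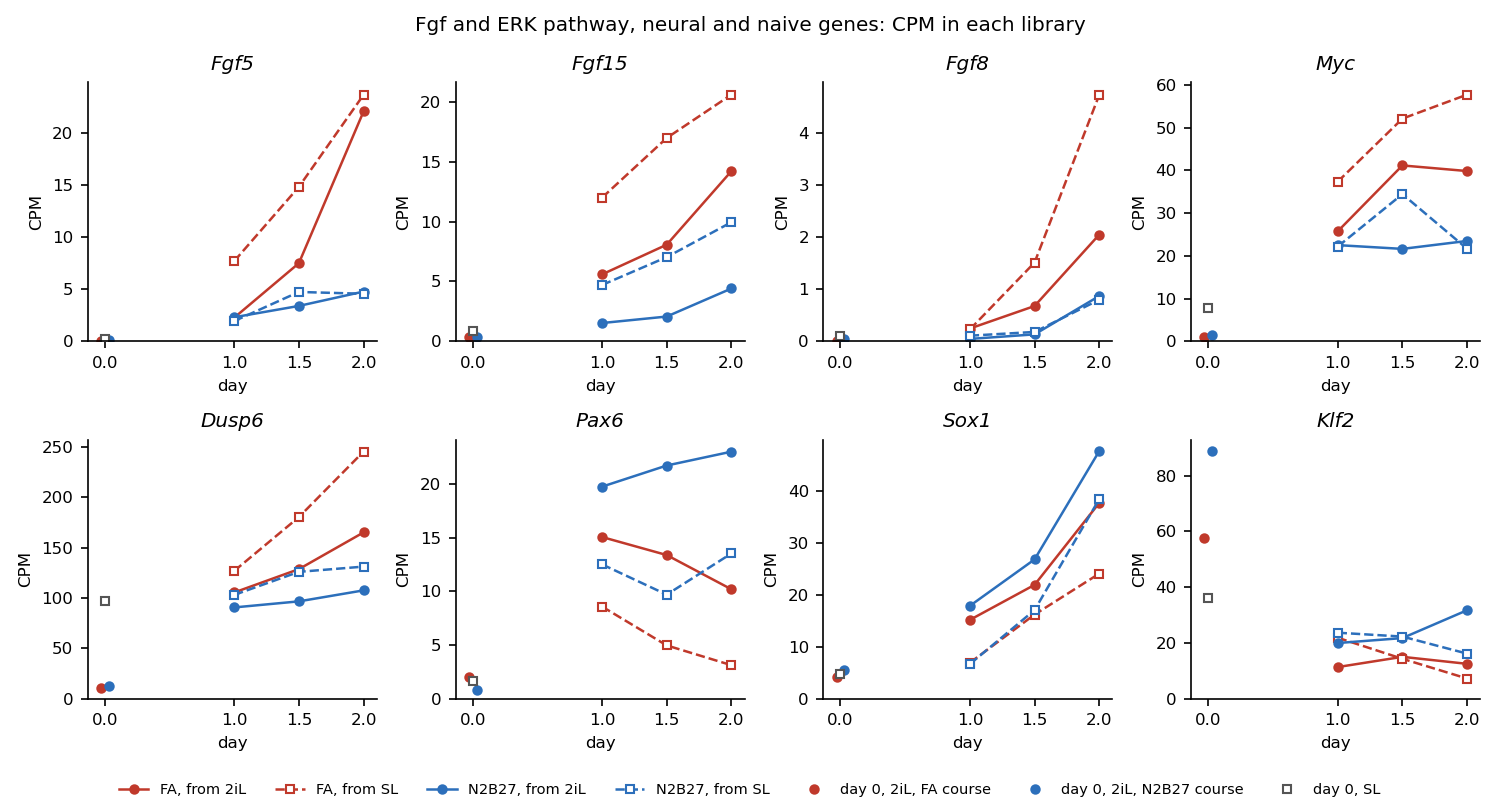
Levels in CPM (vertical axes, each with its own scale) are plotted against day (horizontal axes) for Fgf5, Fgf15, Fgf8, Myc, Dusp6, Pax6, Sox1 and Klf2, with FA in red, N2B27 in blue, 2iL as filled circles with solid lines and SL as open squares with dashed lines, 1 library per point. Fgf5 with FA reached 22.1 and 23.7 CPM on day 2 and stayed under 5 CPM in N2B27, whereas Pax6 was lower with FA in 6 of 6 pairs.

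Genes of the primitive streak and mesendoderm were higher in part. Of 18 genes listed, 10 passed the filter, and 4 of these (Fgf8, Wnt3, Eomes and Hhex) were higher with FA and 0 lower. This was 40% of those tested, against 18.1% of all genes. With the SL pairs alone 7 of 12 tested were higher, against 12.9% of all genes that passed there. With the 2iL pairs alone it was 2 of 7, against 21.1%. Hhex did not pass with the day 0 baseline (adjusted p = 0.0586). Eomes, a T-box factor of the streak, was at 11.4, 11.4 and 15.7 CPM with FA from 2iL and 7.18, 6.41 and 5.97 CPM in N2B27, and from SL at 14.17, 19.0 and 25.2 CPM compared with 8.66, 9.86 and 8.68 CPM. All FA libraries were above all N2B27 libraries, and the log2 difference was 1.01 ± 0.12 (SE, 6 pairs, edgeR, adjusted p = 0.000838). Wnt3, the Wnt ligand that starts the streak, was at 1.52 and 5.38 CPM on day 2 with FA from 2iL and SL, compared with 0.808 and 2.08 CPM in N2B27 (log2 difference 1.08, adjusted p = 0.0117). Brachyury, listed as T, stayed under 2.01 CPM in all 12 libraries and did not pass (log2 difference 0.75, adjusted p = 0.128). Cer1, a secreted inhibitor of Nodal, and Lhx1, a factor of the anterior streak, were singled out after their values were seen. Cer1 reached 6.81 CPM with FA from SL on day 2, compared with 0.692 CPM in N2B27, and stayed under 0.3 CPM in all libraries from 2iL. It did not pass the filter over the 12 libraries, and passed in the SL pairs alone (log2 difference 3.04, adjusted p = 3.92e-05). Lhx1 was at 2.4, 6.57 and 16.9 CPM with FA from SL compared with 0.866, 3.97 and 4.42 CPM, and passed in the SL pairs (adjusted p = 0.000206) but not over all pairs (adjusted p = 0.0550). The difference of its effect between media did not pass either (adjusted p = 0.0620).

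Genes of the neural lineage were lower with FA. Of 22 genes listed, 10 passed the filter, and 12 were too low to be tested at this stage. Of the 10, 7 were lower and 1 higher, with a median log2 difference of -0.45. This was 80% of those tested, against 18.1% of all genes. Pax6, a factor of the early neural plate, was at 15.1, 13.4 and 10.2 CPM with FA from 2iL compared with 19.7, 21.7 and 23.0 CPM, and from SL at 8.57, 4.95 and 3.11 CPM compared with 12.5, 9.68 and 13.5 CPM. It thus decreased with time with FA but not in N2B27, and was lower in 6 of 6 pairs by 0.92 ± 0.17 on the log2 scale (SE, edgeR, adjusted p = 0.00528). Irx3 was 2.13-fold lower (adjusted p = 0.00562) and Ncam1, a neural adhesion molecule, 1.49-fold lower (adjusted p = 0.0111). Sox1, an early marker of neural commitment, was at 37.8 and 24.1 CPM with FA and 47.8 and 38.5 CPM in N2B27 on day 2 from 2iL and SL. Its log2 difference of -0.30 (adjusted p = 0.0289) did not pass without any one pair from 2iL or that of day 2 from SL (up to 0.0893), with the SL pairs alone (0.0848) or with the day 0 baseline (0.208). Irx3 did not pass with the day 0 baseline (0.0603). With the day 0 baseline 2 of the 10 neural genes were lower and none higher, against 6.29% of all genes that passed there. With the SL pairs alone 4 were lower and 1 higher, against 12.9% of all genes. The 1 neural gene that was higher was Nes (log2 difference 0.35, adjusted p = 0.0260), which encodes an intermediate filament also present in other early cells, and which did not pass with the day 0 baseline (0.0547).

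Pluripotency factors did not move as a group. Of 15 factors of naive pluripotency none was higher and 4 were lower with FA, a share of 26.7% against 18.1% of all genes. The median log2 difference of the 15 was -0.14. Klf2 was at 11.3, 15.0 and 12.5 CPM with FA from 2iL compared with 19.9, 21.7 and 31.7 CPM, and from SL at 21.8, 14.3 and 7.20 CPM compared with 23.6, 22.3 and 16.1 CPM. This was lower in 6 of 6 pairs by 0.76 ± 0.13 on the log2 scale (SE, edgeR, adjusted p = 0.00480). Zfp42, also known as Rex1 and a marker of the naive state, was 1.22-fold lower (adjusted p = 0.00129). Klf4 was 1.25-fold lower (adjusted p = 0.0376), and its call was lost without any one pair other than that of day 1 from 2iL (up to 0.110) and with the day 0 baseline (0.253). Nanog was at 59.2 to 241 CPM with FA and 36.4 to 243 CPM in N2B27, and did not pass (log2 difference 0.31, adjusted p = 0.0758). Esrrb did not pass either (0.05, adjusted p = 0.752), and neither did Pou5f1, which encodes Oct4 (0.12, adjusted p = 0.179), or Sox2 (-0.10, adjusted p = 0.313). Of 10 general pluripotency factors, 3 were higher, among them Tdgf1 and L1td1, and 2 were lower, Lin28a (-0.43, adjusted p = 0.00274) and Sall4. The share that passed was 50%.

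Of 18 genes of the formative and primed epiblast 4 were higher and 3 lower, a share of 38.9% against 18.1% of all genes. Besides Fgf5, Grhl2, an epithelial factor that opens enhancers in this transition, was at 32.3 to 54.5 CPM with FA and 18.0 to 34.0 CPM in N2B27, a log2 difference of 0.62 ± 0.10 (SE, 6 pairs, edgeR, adjusted p = 0.00341). Sox3, a SoxB1 factor of the epiblast and neural plate, was 1.52-fold lower (adjusted p = 0.0194), and did not pass without the pair of day 1.5 or day 2 from 2iL (up to 0.0659), with the SL pairs alone (log2 difference -0.25, adjusted p = 0.191) or with the day 0 baseline (0.230). Otx2, a factor of the primed state, was 1.25-fold higher (adjusted p = 0.0474). The call of Otx2 was lost without any one pair from 2iL or that of day 2 from SL (up to 0.132), with the SL pairs alone (adjusted p = 0.628) and with the day 0 baseline (adjusted p = 0.926). Dnmt3b, a DNA methyltransferase that is induced on exit from the naive state, was at 310 to 972 CPM with FA and 355 to 940 CPM in N2B27 and did not pass (log2 difference -0.01, adjusted p = 0.877). Genes of epithelial adhesion were higher in part, with 4 of 14 cadherin and EMT genes higher and 1 lower (35.7% passed). They included Epcam (1.26-fold, adjusted p = 0.00259) and Cldn6 (1.35-fold, adjusted p = 0.0114), while Zeb2, a repressor of Cdh1, was 1.48-fold lower (adjusted p = 0.0274). Cldn6 did not pass without the pair of day 1.5 from SL (0.0506), nor Zeb2 without that of day 2 from 2iL or of day 1.5 or day 2 from SL (up to 0.104).

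The 10 strongest rises and the 10 strongest falls were taken among genes that passed, had a mean of at least 5 CPM and moved in the same direction in all 6 pairs. Besides Lefty2, Lefty1, Smad7 and Fgf15, the rises included those of Has2, Irgm1, Chst15, Tmem63a and Nphs1. Has2, a hyaluronan synthase, was at 1.48, 2.10 and 17.2 CPM with FA from 2iL and 0.834, 1.80 and 3.23 CPM in N2B27, and from SL at 31.9, 37.1 and 58.8 CPM compared with 4.38, 8.36 and 13.04 CPM. Its log2 difference was 2.15 ± 0.21 (SE, 6 pairs, edgeR, adjusted p = 0.000369). Irgm1, an interferon-inducible GTPase, was 3.35-fold higher (adjusted p = 0.000236), and Chst15, a chondroitin sulfotransferase, 2.73-fold (adjusted p = 4.29e-05). Tmem63a, a mechanosensitive channel, was 2.63-fold higher (adjusted p = 0.00017). Nphs1, which encodes nephrin and is best known from the kidney, was at 34.6 to 58.5 CPM with FA and 8.09 to 35.3 CPM in N2B27 (2.501-fold, adjusted p = 0.000796). All 5 passed with the SL pairs alone and with the day 0 baseline.

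Among the falls, 3 were protein-coding genes other than histones. Olig3, a factor of neural progenitors, was at 5.04, 8.57 and 9.89 CPM with FA from 2iL compared with 10.5, 19.8 and 41.0 CPM, and from SL at 0.457, 1.30 and 1.69 CPM compared with 0.974, 3.37 and 10.5 CPM. It was lower in 6 of 6 pairs by 1.63 ± 0.18 on the log2 scale (SE, edgeR, adjusted p = 0.00074). Tfap2c, an AP-2 factor of germ cells and trophoblast, was at 0.995 to 7.03 CPM with FA and 3.80 to 14.7 CPM in N2B27, 2.90-fold lower (adjusted p = 0.00128). Igf2, an imprinted growth factor, was at 2.69 CPM with FA on day 2 from 2iL compared with 21.1 CPM, and at 12.9 CPM compared with 48.4 CPM from SL, 2.61-fold lower over the 6 pairs (adjusted p = 0.00872). The remaining falls were the RNA genes Rn7s1, Rn7s2, Rn7s6, AC156953.1 and AC157822.2, the pseudogene Gm10076 and the histone gene Hist1h2ba. These are among the genes by which the 2iL FA time course stood apart at day 0. The counts of Rn7s1, Rn7s2 and AC157822.2 were nearly identical, as were those of Rn7s6 and AC156953.1, so their counts cannot be taken as separate measurements. Rn7s6 differed by -2.34 on the log2 scale over all pairs (adjusted p = 0.0139), by -0.80 with the SL pairs (adjusted p = 2.79e-08) and by -0.69 with the day 0 baseline (adjusted p = 0.000364). Hist1h2ba differed by -1.60 over all pairs (adjusted p = 0.0257), by -0.37 with the SL pairs and by -0.36 with the baseline, and without any one 2iL pair it did not pass (up to 0.0807). Gm10076 did not pass without any one 2iL pair (up to 0.0786) or with the baseline (0.0610).

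Genes that respond to retinoic acid were looked at after their values were seen, because Greb1l, Rarb, Stra6, Stra8, Meis1 and Meis2 stood among the lower genes. They were picked for being lower and carry no test of the group. Cyp26a1, which degrades retinoic acid, went the other way in the SL pairs, as described further on. It did not pass over all pairs (edgeR, adjusted p = 0.0592). Greb1l differed by -1.23 on the log2 scale (adjusted p = 0.00074). Stra8, whose name stands for stimulated by retinoic acid, was at 54.0, 61.3 and 27.2 CPM with FA from 2iL and 76.5, 106 and 67.6 CPM in N2B27, and from SL at 51.5, 36.3 and 17.4 CPM compared with 85.0, 81.4 and 66.9 CPM. All FA libraries were below all N2B27 libraries, and the gene was 2.07-fold lower (edgeR, adjusted p = 0.00155). Rarb, a retinoic acid receptor that is its own target, was at 1.17 to 6.82 CPM with FA and 3.31 to 11.6 CPM in N2B27, 2.09-fold lower (adjusted p = 0.00306). Stra6, a retinol transporter, Meis1 and Meis2 were lower in 6 of 6 pairs each, with log2 differences of -1.12, -1.002 and -0.85. Meis2 did not pass without the pair of day 1.5 or day 2 from 2iL or day 1.5 from SL (up to 0.112), and Stra6 did not pass with the day 0 baseline (0.0793).

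Lists of other pathways were counted in the same way, against 18.1% of all genes that passed over all pairs. The share was 12.9% with the SL pairs alone, 21.1% with the 2iL pairs alone and 6.29% with the day 0 baseline. Over all pairs 11.8% of the BMP list, 25% of the Wnt list and 70% of the Notch list passed. For glycolysis it was 27.8% and for cholesterol synthesis 25%. Of 17 BMP pathway and Id genes tested, Msx1 was higher (log2 difference 0.82) and Smad5 lower (-0.15), and Id1, a direct target of BMP, did not pass (0.17, adjusted p = 0.491). Of 12 Wnt targets, 3 were higher, namely Dkk1 (0.85), Tcf7 (0.32) and Ccnd1. Of 10 Notch pathway genes, 3 were higher, among them the receptor Notch3 (0.45) and the effector Hey1 (0.60), and 4 lower, among them the ligand Dll1 (-0.51) and Lfng (-0.67), which modifies the receptor. With the SL pairs alone 1 Notch gene was higher and 3 lower. Of 18 glycolysis genes 4 were higher, among them Ldha (0.32) and Pfkp (0.18), and 1 was lower, the glucose transporter Slc2a1. Slc2a1 was at 344 and 330 CPM with FA on day 2 from 2iL and SL, compared with 867 and 970 CPM in N2B27, and was 1.71-fold lower over the 6 pairs (edgeR, adjusted p = 0.0113). Glycolysis genes numbered 1 higher and 3 lower with the SL pairs alone, and 1 higher and 2 lower with the day 0 baseline. Of 20 cholesterol synthesis genes 1 was higher and 4 lower, among them Mvk at -0.26 and Hsd17b7 at -0.23 on the log2 scale. The cholesterol count was 0 higher and 11 lower with the 2iL pairs alone, 3 higher and 1 lower with the SL pairs alone, and 1 higher and 0 lower with the day 0 baseline. Of 13 p53 targets 0 were higher and 2 lower, Phlda3 (-0.68) and Sesn2 (-0.25), a share of 15.4% against the 18.1% of all genes. Xist, the RNA that silences the X chromosome, was at 1.35 to 10.9 CPM with FA and 1.58 to 13.4 CPM in N2B27 and did not pass (log2 difference -0.23, adjusted p = 0.161), while its activator Rlim was 1.13-fold higher (adjusted p = 0.0136). Of these, Msx1, Smad5, Hey1, Lfng, Notch3 and Pfkp each lost their call without some of the pairs, Hey1 without any of the 6 (adjusted p up to 0.124). With the SL pairs alone Msx1, Smad5, Ccnd1, Hey1, Lfng, Pfkp, Hsd17b7, Phlda3 and Rlim did not pass (adjusted p from 0.0777 to 0.191). With the day 0 baseline Msx1, Smad5, Ccnd1, Hey1, Dll1, Lfng, Pfkp, Mvk, Hsd17b7, Sesn2 and Rlim did not pass (adjusted p from 0.0618 to 0.811).

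Markers of other cell types were measured beside these lists. In bulk RNA, fewer cells of a type and less RNA per cell cannot be told apart. Of 11 markers of extraembryonic endoderm tested, Ttr was higher and Gata6 and Pdgfra lower, a share of 27.3% against 18.1% of all genes. The summed level of the list was 1074 to 1123 CPM with FA and 1010 to 1411 CPM in N2B27 from SL. From 2iL it was 61.5 to 334 CPM and 49.3 to 279 CPM. Pdgfra was 1.63-fold lower (adjusted p = 0.0454), which was lost without any one SL pair or that of day 1.5 from 2iL (up to 0.135). Apob, which endoderm expresses and which is no list member, was at 43.3, 112 and 206 CPM with FA from SL compared with 7.85, 25.7 and 51.7 CPM, and was named after its value was seen. The part of such cells in these differences was not tested. Of 8 markers of 2-cell-like cells none passed over all pairs, while 3 were higher in the SL pairs alone, all 4 tested were lower in the 2iL pairs alone, and 2 were higher with the day 0 baseline, with sums of 1466 to 2671 CPM from SL and 34.6 to 92.6 CPM from 2iL over both conditions. The 6 trophoblast and the 4 fibroblast markers tested did not pass either, with sums of 10.4 to 26.1 CPM and 1.30 to 12.1 CPM.

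Whether the response to FA depended on the medium in which ESCs had been maintained was tested as the difference of the effect between 2iL and SL. It passed for 743 of 13902 genes (5.34%), of which 299 had a higher effect in 2iL (2.15%) and 444 a lower one (3.19%). With the day 0 baseline only 5 passed (0.036%), although 1761 had an unadjusted p under 0.05. Of the 743 genes, 658 (88.6%) already had a difference of the same sign between the 2 2iL time courses at day 0, compared with 61.4% of all genes tested. Across 12030 genes with at least 1 CPM, the mean difference of the 2iL pairs had a Pearson r of 0.55 with the day 0 difference, while that of the SL pairs had an r of 0.16. Genes are not independent replicates, and the 2iL pairs share the time courses with the day 0 libraries. For the main members of both pathways the difference did not pass, with 0.15 for Lefty1 (adjusted p = 0.735), 0.73 for Lefty2 (adjusted p = 0.0568), 0.07 for Smad7 (adjusted p = 0.905) and -0.63 for Fgf5 (adjusted p = 0.385), where values are log2 effects in 2iL minus those in SL.

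Some differences between media were large in single genes. The 3 with the lowest effect in 2iL were Gm10036 (-4.73), Gm18025 (-3.93) and Snora15 (-3.33), which were already low in the 2iL FA time course at day 0. The 3 with the highest, Gm11168 (5.15), Gm10719 (4.28) and Gm17535 (4.23), were high in a single library, that of FA on day 1 from 2iL, at up to 91.6 CPM for Gm11168. Gm10719 and Gm17535 had nearly identical counts and cannot be taken as separate measurements. Cyp26a1, which degrades retinoic acid, was at 16.7, 21.5 and 32.0 CPM with FA from SL compared with 6.60, 7.76 and 8.89 CPM in N2B27, and at 1.35, 4.87 and 3.63 CPM from 2iL compared with 2.08, 6.21 and 4.04 CPM. Irs4, an adaptor of insulin and IGF signalling, was at 13.3, 21.2 and 47.7 CPM with FA from SL compared with 2.98, 4.39 and 4.68 CPM, and was within 2.33 and 8.55 CPM in the FA libraries from 2iL. The difference of effects was -1.92 for Cyp26a1 (adjusted p = 2.65e-05) and -2.42 for Irs4 (adjusted p = 0.000565), both named after their values were seen. Neither passed with the day 0 baseline (-1.57, adjusted p = 0.598, and -0.34, adjusted p = 0.993), in which both genes were near the floor at day 0. The 5 genes that passed with the baseline were Serpinh1, Clcn5, Fzd7, Fnip2 and Jade2. Serpinh1, a collagen chaperone, differed at day 0 (13.7 CPM in the FA time course compared with 39.5 CPM) and by -0.46 and -0.44 with the pairs of 2iL and SL.

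**Figure D5:**
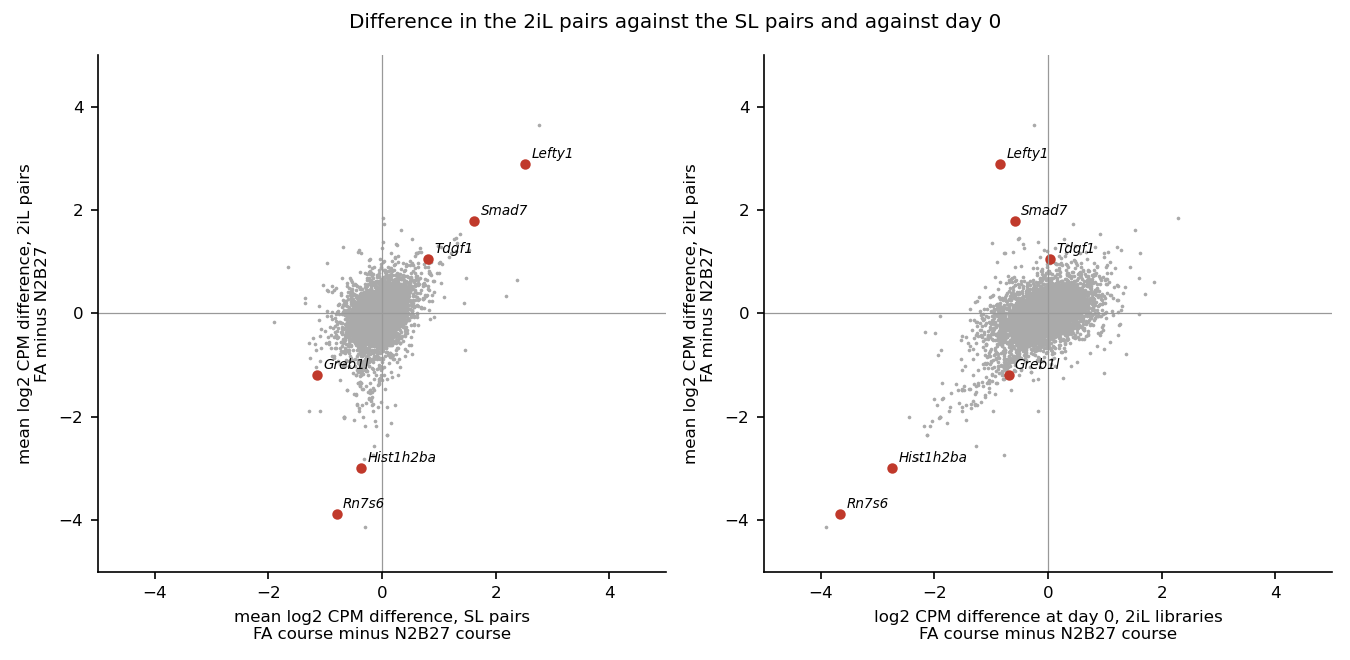
Each of 12030 genes is a point, with the mean log2 CPM difference of the 3 2iL pairs, FA minus N2B27, on the vertical axes, against the mean difference of the 3 SL pairs (left) and the difference between the 2iL libraries of the 2 time courses at day 0, before FA (right). Lefty1, Smad7 and Tdgf1 were high on both axes at left, whereas Hist1h2ba and Rn7s6 lay low on both axes at right, with day 0 differences of -2.74 and -3.66.

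Whether the difference between conditions changed from day 1 to day 2 was tested as a change of the log2 effect per day. It passed for 4 genes (0.0288%), and 755 had an unadjusted p under 0.05. Tdgf1 gained 1.25 ± 0.15 per day (SE, edgeR, adjusted p = 0.0355). Its log2 difference was 0.32, 0.98 and 1.83 from 2iL and 0.34, 0.75 and 1.35 from SL on days 1, 1.5 and 2. Notch3, a Notch receptor, gained 0.91 ± 0.11 per day (adjusted p = 0.0364), from 0.03 to 0.99 from 2iL and from 0.00 to 0.87 from SL. H19, an imprinted noncoding RNA, changed by -1.63 ± 0.16 per day (adjusted p = 0.0201), from 0.71 to -0.80 from 2iL and from 0.59 to -1.25 from SL, and its difference over the 3 days did not pass (adjusted p = 0.361). Greb1l, a retinoic acid-responsive gene, changed by -1.06 ± 0.13 per day (adjusted p = 0.0355). The order of the 3 days was the same in both media for these 4 genes. With 3 days these calls were fragile. Tdgf1 lost its call without any one pair other than that of day 2 from SL (up to 0.177) and H19 without any one pair other than that of day 1.5 from 2iL or of day 2 from SL (up to 0.154), while Notch3 (up to 0.184) and Greb1l (up to 0.168) lost theirs without any one of the 6. Smad7 had a similar gain of 0.96 ± 0.15 per day that did not pass (adjusted p = 0.101), and Lefty1 and Lefty2 changed by -0.70 and -0.83 per day (adjusted p = 0.794 and 0.910).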

How the data were processed

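Strand-specific RNA-seq after depletion of ribosomal RNA was analysed in 12 libraries of days 1 to 2. Reads were trimmed with TrimGalore and mapped to GRCm38 with TopHat2 and Ensembl gene models. The authors assigned them to genes by strand with featureCounts, and the deposited values are raw counts, not normalized. Tool versions are not given in the sources used here. Strand-specific counting separates a gene from its antisense partner, while near-identical copies can share or lose reads.

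The counts were analysed here with R 4.3.3 and edgeR 4.0.16 (filterByExpr, TMM, quasi-likelihood test, two-sided, Benjamini-Hochberg threshold 0.05), with condition and a block of 6 levels for medium and day. The paired design comes from the labels, and the deviations of paired libraries from their group means correlated with an r of 0.796 to 0.902 over 13150 genes, highest with the own partner in all 6 pairs. Terms of condition by medium and condition by day were added for the other tests. Pair differences carry a pseudocount of 0.1 CPM. The 12 libraries held 15101710 to 22151679 counts, and no 2 agreed within sampling noise. DESeq2 1.42.0 and limma 3.58.1 (voom) served as alternatives. The day 0 baseline, library totals and the removal of structural RNAs, pseudogenes and histone genes were added after seeing the data.

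On simulated counts, 70.7% of genes changed by 0.5 and 100% of those changed by 1 on the log2 scale were recovered for FA against N2B27 among 13789 genes, with 2.31% false calls. For the difference between media 42% and 76% were recovered among 13779 genes, and for the change with day 16% and 63.3% among 13796. The simulated libraries were independent of each other. They held neither a tie between the days of a time course nor the day 0 difference of the 2iL FA time course. The shares, false calls included, therefore hold for that setting only.

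Gene lists, members and named genes were chosen with earlier results of these data known. Named were the 10 largest rises and falls that passed with a mean of at least 5 CPM and 1 direction in all pairs, pathway members that passed, Fgf2 and Inhba, up to 3 members of each other list, a fixed set of markers, and the 3 largest differences in each direction by medium and by day. Genes said to be named after their values were seen fall outside this rule. Some genes that meet it are not reported here, though counts over a list include them. Positions come from GENCODE M21, in which 34599 of the 35372 genes were found. The other conditions and days, apart from day 0, were used only to show which libraries stand apart.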

Additional observations from a re-analysis of the deposited data

Results flagged for a closer look

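In 96 genes chosen for naming the 6 pair differences were examined for a single pair far from the other 5, which chance alone gives in about 1 group in 20. In 5 of the 96 genes such a pair was found, which is close to the number that chance alone would give. Of the 5, Gm10719 and Gm17535 had nearly identical counts. The log2 difference of the pair of day 1 from 2iL was 6.42 for Gm11168, 5.12 for Gm10719 and 5.09 for Gm17535, with the FA library as the high one, and -0.0485 for Grhl2, whose other pairs were higher with FA. The pair of day 1 from SL was at 0.0748 for Epcam, the lowest of its 6.

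The effect of FA differed between ESCs from 2iL and from SL by the test of the difference itself in 20 of the genes named. Values are log2 effects in 2iL minus those in SL, and the libraries of the 2iL FA time course stood apart at day 0 as well. The effect was lower in 2iL by this measure for Gm10036 (-4.73), Gm18025 (-3.93), Snora15 (-3.33), Rn7s6 (-3.10), AC156953.1 (-3.10), Hist1h2ba (-2.64), Gm10076 (-2.54), Irs4 (-2.42), Cyp26a1 (-1.92), Apob (-1.43), Rn7s1 (-1.36), Rn7s2 (-1.36), AC157822.2 (-1.35), Phlda3 (-0.80) and Sox3 (-0.773). It was higher in 2iL for Gm11168 (5.15), Gm10719 (4.28), Gm17535 (4.23), Irgm1 (0.852) and Esrrb (0.492). Genes described above as having nearly identical counts are each listed, so the 20 are not all separate measurements. Esrrb, a naive pluripotency factor, was higher with FA in the 3 pairs from 2iL and lower in the 3 from SL. None of these differences passed with the day 0 baseline, and the part of the time course in them was not tested further.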

How the results depend on the processing

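The count of genes differing between FA and N2B27, 2516, was 1706 with DESeq2, 1736 with medium and day as additive terms of the block, 1658 with limma voom and the time course as a random effect, 874 with the day 0 baseline and 4392 with library totals (3901 higher, 491 lower). Of the 2516, 123 also differed by over 1 on the log2 scale. Leaving out 1 pair at a time gave 1394 to 2021. With the 2iL pairs alone 2864 passed. The replicate block (medium and day) decided the count, since with no replicate block 0 genes passed in edgeR and 1411 had an unadjusted p under 0.05. The difference of effects between media, 743 genes, was 443 with DESeq2, 1258 with no filter on low counts, 1726 with library totals (81.6% higher in 2iL, compared with 40.2%, and 30.2% with DESeq2), 5 with the day 0 baseline, and 396 to 844 with 1 pair left out. The 4 genes that changed with day were 26 with DESeq2, 32 with no filter, 0 with library totals (615 at an unadjusted p under 0.05) and 0 to 2 with 1 pair left out. The cause was not tested.

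Over all genes, 2508 of the 2516 that passed kept their direction with the day 0 baseline. It was kept in 2476 of 2478 tested with the 2iL pairs alone, and in 2504 of 2506 with the SL pairs alone. Each of these fits reuses pairs that gave the 2516 calls, so the kept direction was largely fixed in advance. Among the genes named, log2 differences between FA and N2B27 turned direction only in those that did not pass over all pairs. With DESeq2 they were Gm10719 (-0.16) and Gm17535 (-0.14). With the 2iL pairs alone they were Cyp26a1 (-0.36), Lhx1 (-0.087), Jade2 (-0.047), Pou5f1 (-0.0019), Id1 (-0.038) and Sox2 (0.037). With the SL pairs alone they were Gm10719 (-1.10), Gm17535 (-1.06), Gm11168 (-0.61), Esrrb (-0.21) and Dnmt3b (0.10). With the day 0 baseline they were Gm10036 (0.011), Gm10719 (-0.86), Gm17535 (-0.81), Gm11168 (-0.55), Esrrb (-0.029) and Dnmt3b (0.057), and, for the difference of effects between media, Gm10036 (0.35), Gm18025 (0.036) and Snora15 (0.63). With library totals they were Sox2 (0.026) and Dnmt3b (0.11). With 1 pair left out at a time the range was -0.757 to 1.461 for Gm10719, -0.743 to 1.515 for Gm17535, -0.150 to 2.836 for Gm11168, each lowest without the pair of day 1 from 2iL, -0.052 to 0.028 for Dnmt3b, and -0.046 to 0.107 for Esrrb. Each pair is 1 library against 1, and 3 pairs per medium limit the smallest effects that can be seen.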
